A study of Homo sapiens with 6 samples.

Results

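FABP4 and its relatives are small cytoplasmic proteins that carry fatty acids, bile acids or retinoic acid inside the cell. The 10 genes FABP1 to FABP7, PMP2, CRABP1 and CRABP2 were taken by name, and their probe sets were used where the annotation gave exactly 1 gene. By that rule 7 of the 10 were measured, among 18417 genes in all. The set was put together around FABP4 because FABP4 was known to be among the largest rises after SAHA in these arrays. The members were therefore chosen by the same SAHA and control values that are described here, and their values are given as a description. No p-value is given for a member, and the counts of members past a threshold are part of that description and support nothing.

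The data came from 6 Affymetrix whole-transcript arrays of total RNA from A204, an established human line of rhabdoid tumour cells. The 3 SAHA arrays were of A204 cells kept for 12 h with SAHA, also called vorinostat, which inhibits histone deacetylases. The 3 control arrays were of A204 cells given the solvent DMSO according to the treatment protocol, although another label gives their treatment as none. A time of 12 h was labelled for the SAHA arrays only. The dose is printed with an incomplete unit and is not stated here, and nothing in the labels tells whether replicate arrays stem from separate cultures. The p-values thus rest on the spread of these arrays alone, which may be technical. Rhabdoid tumours typically lack the SWI/SNF subunit SMARCB1 and express vimentin. Both genes were named outside the naming rule. SMARCB1 was at 7.22 ± 0.05 in SAHA and 7.74 ± 0.04 in control arrays, below 8.14, the median level of all genes. VIM was at 12.63 ± 0.02 in SAHA and 12.81 ± 0.03 in control (both genes log2, SD, n = 3 each). No detection call was used, so the absence of a transcript could not be judged.

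Each carrier folds into a barrel of beta strands that closes around 1 hydrophobic ligand, which lets the ligand cross the watery cytoplasm to enzymes, membranes or the nucleus. FABP4 is the carrier of fat cells, and macrophages and capillary endothelium also express it. It can bring fatty acids to the nuclear receptor PPARG, and FABP4 is itself a well-known target gene of PPARG. FABP5 carries fatty acids in the epidermis and can bring retinoic acid to PPARD, whereas CRABP2 brings retinoic acid to the retinoic acid receptors (RARs). FABP6 binds bile acids in the ileum, FABP1 and FABP2 serve liver and gut, FABP3 serves heart and skeletal muscle, FABP7 marks radial glia, and PMP2 is a myelin protein of Schwann cells.

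Among the 7 measured carriers FABP4 and FABP6 were higher and CRABP2 was lower in SAHA arrays, while FABP2, FABP3, FABP7 and PMP2 differed by no more than 0.05 log2 units. All levels below are log2 of RMA signal intensities, and each change is the mean of 3 SAHA arrays minus the mean of 3 control arrays. As a description of the chosen members, 2 of the 7 lay past the threshold of the limma fit over all genes (adjusted p under 0.05) on the higher side and 1 on the lower, where the fit called 31.1% of all genes higher and 28.9% lower, together 60.0%. The same 3 carriers were those with groups that do not overlap, where 65.4% of all genes had such groups. The median change of the 7 carriers was 0.04, against -0.0027 over all genes.

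FABP4 had levels of 11.23, 11.28 and 11.29 in the SAHA arrays, against 6.31, 6.51 and 7.16 in the control arrays. The SAHA arrays lay within 0.1 of each other and far above every control array, and control replicate 3 was the highest of the controls. The change was 4.61 ± 0.19 (SE, n = 3 each), a 24.3-fold difference and rank 9 from the top among 18417 genes. The control arrays spread far more than the SAHA arrays: the SD was 0.03 in SAHA and 0.44 in control, where the median gene had 0.05 in SAHA and 0.07 in control. Only 29 genes had a larger SD between the controls. Without control replicate 3 the change of FABP4 was 4.86. Where the control signal is partly background, the fold is a lower bound.

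FABP6, the ileal bile acid binding protein, had levels of 8.49, 8.28 and 8.51 in SAHA arrays, against 7.09, 6.82 and 6.95 in control arrays. The groups were more than 1 log2 unit apart. The change was 1.47 ± 0.09 (SE), or 2.77-fold, rank 464 from the top. The probe set is annotated to several FABP6 transcripts, so the isoform could not be told. SLC10A2, the ileal transporter that takes up bile acids, was at 5.66 ± 0.02 in SAHA and 5.63 ± 0.06 in control (SD, n = 3 each), and was named outside the rule. None of the 7 measured enterocyte markers passed the test. The nearest were LGALS4, a gut galectin, at -0.11 and ALPI, intestinal alkaline phosphatase, at 0.09 (limma adjusted p = 0.0883 and 0.128). LGALS4 passed as lower in 4 of 16 alternatives, namely a further quantile normalization, housekeeping centring, cyclic loess and the fit that left out control replicate 2 (adjusted p = 0.00206, 0.0065, 0.013 and 0.0278).

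CRABP2 had levels of 12.92, 12.89 and 12.90 in SAHA arrays, against 13.27, 13.23 and 13.28 in control arrays. Replicates lay within 0.05 of each other in both groups, and the groups were clearly apart. The change was -0.36 ± 0.04 (SE), 1.28-fold lower in SAHA. CRABP1, the other retinoic acid carrier, was not analysed here.

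FABP5 was named only together with its pseudogene FABP5P3, by 2 probe sets, so neither gene can be given a value of its own. The probe set 8147049 had levels of 10.03, 10.08 and 9.95 in SAHA arrays, against 9.02, 8.93 and 8.98 in control arrays. That was 1.05 higher on the log2 scale, 2.06-fold, with no overlap. The probe set 7948420 differed from it by at most 0.03 in any array and is no independent measurement. Both were outside the fit and were not tested. The only probe set for FABP1 also names PRDM10, a zinc-finger gene. It stood at 4.95 ± 0.11 in SAHA and 4.95 ± 0.07 in control (SD, n = 3 each).

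FABP3, the carrier of heart and skeletal muscle, was at 4.88, 4.81 and 4.93 in SAHA arrays, against 4.86, 4.77 and 4.86 in control arrays. FABP7 was at 4.95, 4.89 and 4.85 in SAHA, against 4.80, 4.92 and 4.87 in control. PMP2 was at 4.59, 4.74 and 4.80 in SAHA, against 4.72, 4.65 and 4.65 in control. In these 3 genes the groups overlapped. FABP2, the intestinal carrier, was at 4.15, 4.12 and 4.12 in SAHA, against 4.08, 4.10 and 4.23 in control, again with overlap. All 4 stayed between 4.08 and 4.95 in every array, with changes from -0.0021 to 0.05, so no difference was detectable above the replicate spread. Their small changes turned or stayed negative, -0.11 to -0.06, when arrays were centred on a housekeeping list, a scaling that lowers all genes by about 0.1. That centre was each array's median over 8 list genes, and it lay between TBP and SDHA, which changed by 0.06 and 0.14. Of these 8 genes SDHA was itself called higher, whereas HPRT1 and PPIA were called lower, at -0.69 and -0.46. The median change of the list was -0.0045. In bulk RNA such as this, fewer cells with a transcript and less of it per cell cannot be told apart.

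**Figure D1:**
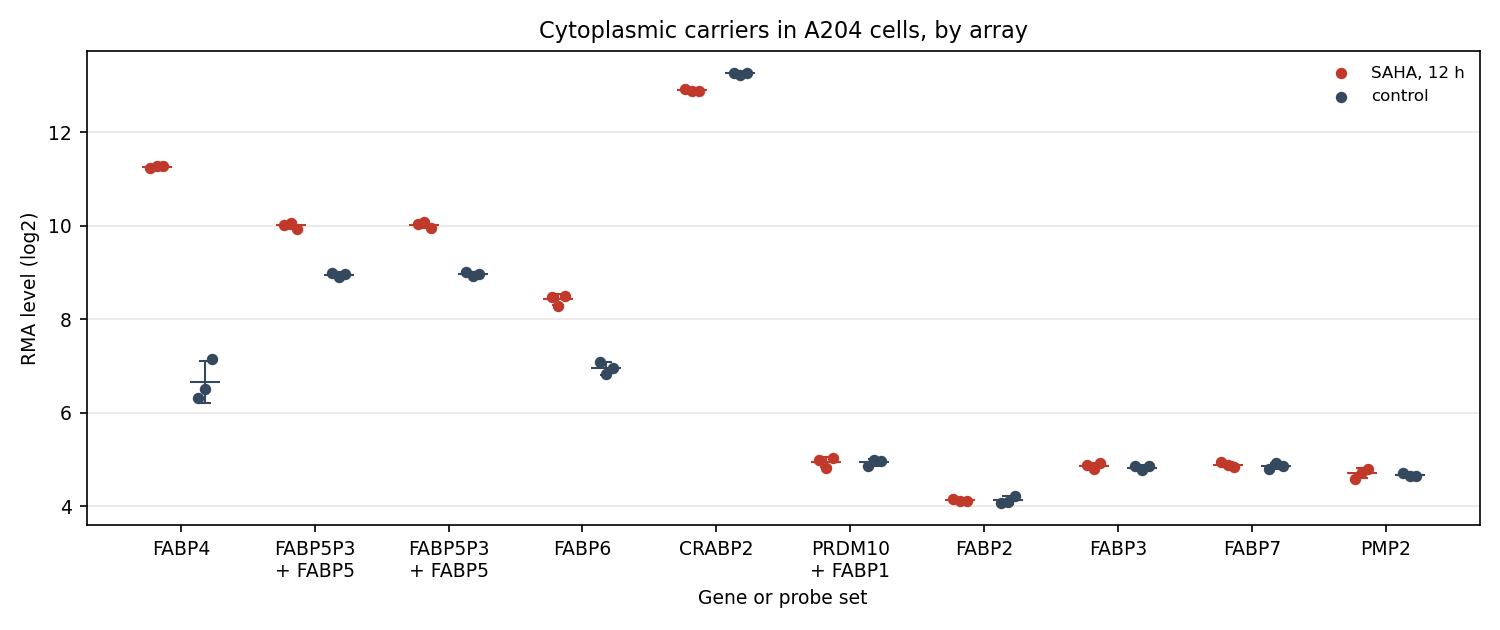
RMA level (log2, y axis) of each probe set that names a carrier (x axis), with SAHA arrays in red on the left and control arrays in dark blue on the right of each pair. Points are arrays and bars are mean ± SD of 3. FABP4 stands at 11.27 in SAHA and 6.66 in control, while FABP2, FABP3, FABP7 and PMP2 stay between 4.08 and 4.95 in all 6 arrays.

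RefSeq (GRCh38.p14) gave promoter sequence for 5 measured carriers, FABP2, FABP3, FABP6, FABP7 and CRABP2. FABP4 and PMP2 have no entry in the table used. Sequences of 3 carriers are shown because they contrast a carrier that was higher, one that stayed at a low level with a like TATA motif, and one that was lower. Each is the 100 bases just before the transcription start, 5′ to 3′ on the gene's strand, with matches to the searched motifs in capitals.
FABP6 promoter, chr5:160229406-160229505, plus strand: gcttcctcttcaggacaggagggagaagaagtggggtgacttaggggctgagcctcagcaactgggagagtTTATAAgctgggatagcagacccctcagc
FABP2 promoter, chr4:119322139-119322238, minus strand: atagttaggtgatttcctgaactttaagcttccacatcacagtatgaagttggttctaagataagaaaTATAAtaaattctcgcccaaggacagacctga
CRABP2 promoter, chr1:156705785-156705884, minus strand: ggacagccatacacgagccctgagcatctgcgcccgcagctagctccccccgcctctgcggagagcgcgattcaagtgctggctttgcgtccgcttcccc

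A search of both strands covered the 250 bases before the start. It looked for the TATA motif TATAA, the box known by its letters CCAAT, the GC box GGGCGG and the half-site AGGTCA that PPAR, RXR and RAR receptors bind. TATAA began at position -28 in FABP6, where an overlapping match on the other strand began at -29, and at -32 in FABP2. Of 35116 promoters of the same length, 18.9% held this motif. The letters CCAAT occurred 3 times in FABP7 and in none of the other carriers, against 32.0% of all promoters. Neither GGGCGG (42.6% of all promoters) nor AGGTCA (12.1%) occurred in these 5 windows. CpG pairs numbered 3 in FABP6, 2 in FABP2, 5 in FABP7, 13 in FABP3 and 18 in CRABP2, where the median promoter had 11. The carriers with few CpG pairs thus include one that was higher and others that were not.

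FABP4 lies on chromosome 8 in a row of carrier genes, FABP5, PMP2, FABP9, FABP4 and FABP12 in RefSeq order. The measured carriers on both sides of FABP4, PMP2 and FABP12, did not share its change. Both stayed below 6.35, the lower quartile of the level of all genes, where differences may be compressed. PMP2 had the values given above, and FABP12 was at 3.69, 3.60 and 3.68 in SAHA arrays, against 3.69, 3.78 and 3.73 in control arrays (change -0.07, adjusted p = 0.217, limma). FABP9 was not analysed here. FABP5 has no value of its own, and its probe sets, shared with FABP5P3, were 2.06-fold and 2.07-fold higher in SAHA arrays.

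Beyond the carriers, PAG1, which encodes a membrane adaptor that recruits an inhibitor of SRC-family kinases, was the nearest measured gene on the side of FABP5. It rose by 1.40, to 8.24, 8.07 and 8.22 in SAHA, against 6.74, 6.72 and 6.87 in control (limma adjusted p = 5.55e-07). ZNF704 fell by 0.56 (limma adjusted p = 0.00497), and ZBTB10 had a change of -0.07 that did not pass (adjusted p = 0.37). On the FABP12 side, IMPA1, an inositol monophosphatase, rose by 0.21 (limma adjusted p = 0.00874). SLC10A5 was at -0.17 without passing (adjusted p = 0.0638), and ZFAND1 fell by 0.37 (limma adjusted p = 0.00757). Of the 8 neighbours with a probe set of their own, counting PMP2 and FABP12 but not FABP5, only PAG1 differed by 2-fold or more. The calls of ZNF704 and ZFAND1 ended with the ordinary unmoderated test (adjusted p = 0.0508 and 0.0549) and that of IMPA1 with housekeeping centring (0.134), while SLC10A5 passed as lower without SAHA replicate 1 (0.034) and, like ZBTB10 and FABP12, with housekeeping centring (0.00684, 0.0319 and 0.0103).

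**Figure D2:**
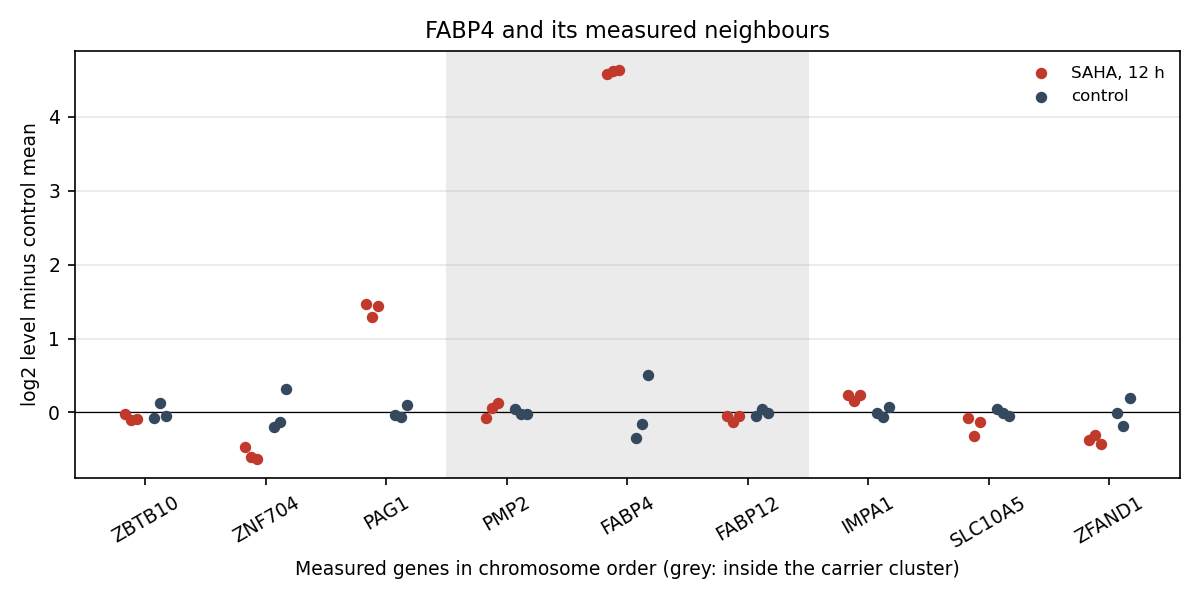
Level of each array minus the gene's control mean (log2, y axis) for the measured genes in RefSeq order along the chromosome of FABP4 (x axis, order only), SAHA arrays in red and control arrays in dark blue. The shaded genes lie inside the carrier cluster. FABP4 is 4.61 above its control mean, PAG1 1.40, and PMP2 and FABP12 lie near 0.

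The genes with a profile most like that of FABP4 were found by the root mean square distance over the 6 arrays, after centring each gene on its own mean. Symbols starting with LOC, MIR, SNOR, RNU or LINC were left out of this ranking. The nearest was CCL20, a chemokine gene, at 0.17 log2 units, with levels of 9.79, 9.79 and 9.73 in SAHA, against 4.89, 4.82 and 5.24 in control. As in FABP4, control replicate 3 was the highest control of CCL20. The next were ATP1B2, a sodium pump subunit, at 0.25, KRT20, an intestinal keratin, at 0.31, SERPINE2, a protease inhibitor, at 0.33 and the antisense transcript PKD1L1-AS1 at 0.35. The 5 genes had changes of 4.78, 4.66, 4.52, 4.12 and 4.57 in that order. Likeness here mostly reflects the size of the change, because each profile has only 2 groups of 3 arrays.

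The nuclear receptors that the carried ligands bind moved both ways. The list of 10 measured PPAR, RXR and RAR genes and PPAR coactivators had 3 called higher and 5 lower, with a median of -0.14. Beside this and every later list count stands the share over all genes, 31.1% called higher and 28.9% lower. PPARD rose by 1.26, to 10.56, 10.58 and 10.60 in SAHA, against 9.32, 9.39 and 9.25 in control (limma adjusted p = 2.35e-07). PPARG, the regulator of fat cell genes, fell by 1.34, to 7.81, 7.76 and 7.96 in SAHA, against 9.21, 9.17 and 9.17 in control (limma adjusted p = 4.31e-07). FABP4 and PPARG thus lay on opposite sides of their controls in all 3 SAHA arrays.

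RARB, a retinoic acid receptor that retinoic acid itself induces, fell by 0.64, to 10.97, 10.99 and 10.96 in SAHA, against 11.61, 11.62 and 11.62 in control (limma adjusted p = 2.46e-06). Named after their values were seen, PPARA rose by 0.29 (limma adjusted p = 0.000573), PPARGC1A, a coactivator of the PPARs, rose by 0.31 (adjusted p = 0.0117) and PPARGC1B fell by 0.41 (adjusted p = 8.71e-05). Of the RXR genes, whose products pair with PPARs and RARs, RXRA fell by 0.56 (limma adjusted p = 2.54e-05) and RXRB fell by 0.15 (adjusted p = 0.0216). The call of RXRB ended in 4 of 17 alternatives, among them a further quantile normalization and the fits without SAHA replicate 2 or control replicate 2 (adjusted p = 0.206, 0.0816 and 0.0593). That of PPARGC1A ended with housekeeping centring and with the ordinary unmoderated test (adjusted p = 0.0657 and 0.0658). RARG and RXRG did not pass, although RARG passed as lower in 4 of 17 alternatives, among them the one without control replicate 1 (adjusted p = 0.0232).

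**Figure D3:**
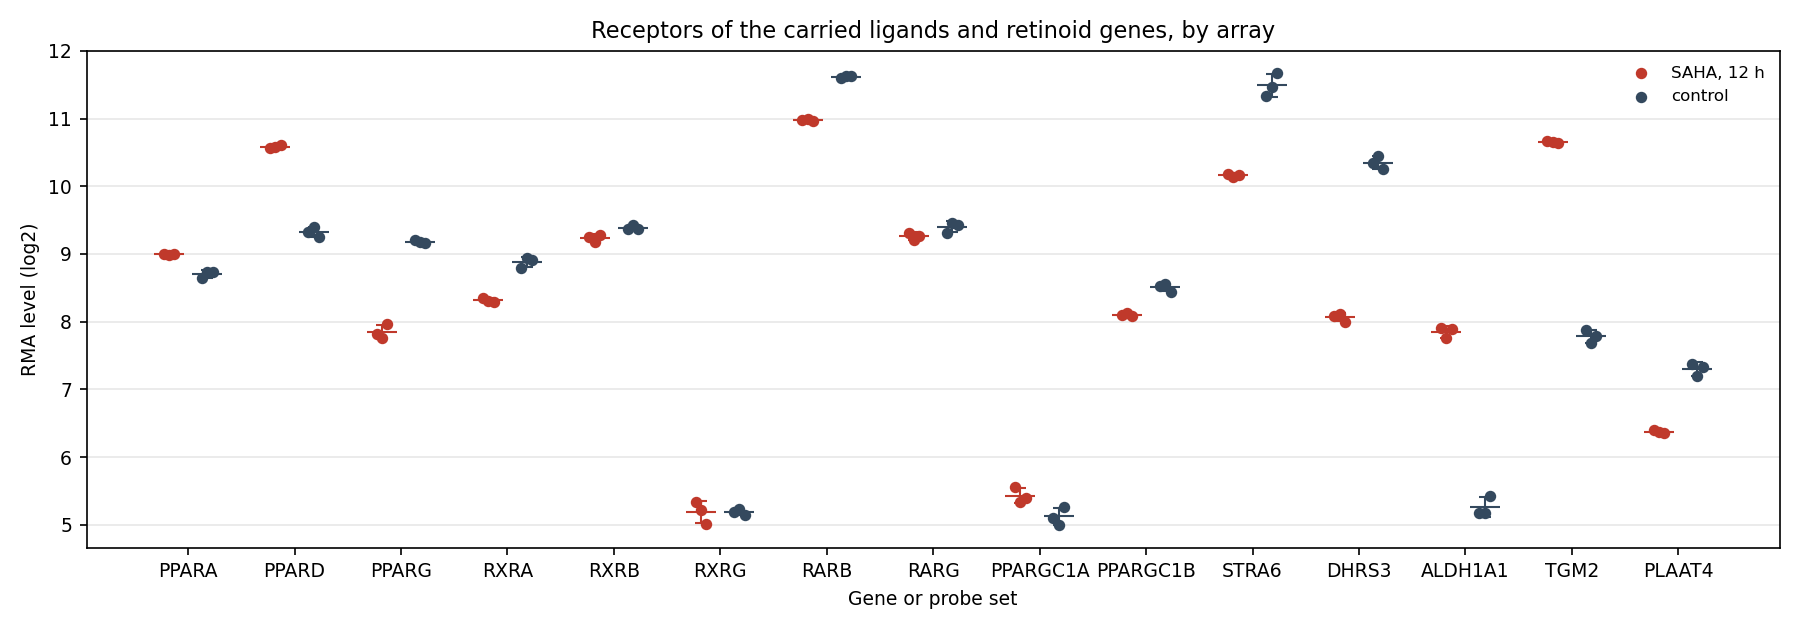
RMA level (log2, y axis) of the 10 measured receptor and coactivator genes and of 5 retinoid genes (x axis), SAHA arrays in red on the left and control arrays in dark blue on the right of each pair, with mean ± SD of 3. PPARD, ALDH1A1 and TGM2 are higher in SAHA, and PPARG, RARB, STRA6 and DHRS3 are lower.

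Genes that take up, make or break down retinoids moved both ways, and of those that answer to the ligand of CRABP2 more fell than rose. The first list mixes synthesis and breakdown, so its counts give no direction of supply. Of 13 retinoid uptake and metabolism genes 3 rose and 5 fell, with a median of -0.10. One of the lower genes was TTR, named after its value was seen, at -0.13 (limma adjusted p = 0.0453). Its call ended in 9 of 16 alternatives, among them centring on the median of all genes (adjusted p = 0.0521). DHRS3, which reduces retinal back to retinol, fell by 2.28, to 8.07 ± 0.06 in SAHA, against 10.35 ± 0.10 in control (SD, n = 3 each, limma adjusted p = 4.05e-08). STRA6, the cell's receptor for circulating retinol, was at 10.18, 10.13 and 10.17 in SAHA, against 11.33, 11.47 and 11.67 in control (limma adjusted p = 2.5e-06). ALDH1A1, which oxidises retinal to retinoic acid, was higher, at 7.90, 7.75 and 7.89 in SAHA, against 5.18, 5.18 and 5.43 in control (limma adjusted p = 6.97e-08).

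Of 9 genes known as induced by retinoic acid 5 fell and 1 rose, with a median of -0.64. Several of them, RARB, DHRS3 and STRA6 among them, are also on the other lists. PLAAT4, a phospholipase, fell by 0.93, to 6.39, 6.36 and 6.35 in SAHA, against 7.38, 7.19 and 7.33 in control (limma adjusted p = 2.41e-06). The gene that rose was TGM2, a transglutaminase, by 2.87, to 10.67, 10.65 and 10.64 in SAHA, against 7.88, 7.68 and 7.79 in control (limma adjusted p = 1.15e-08). In the same arrays CRABP2 was lower by 0.36.

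Genes of fatty acid uptake and activation were higher or did not pass, 7 and 6 of 13, with none called lower and a median of 0.29. Of all genes 60.0% were called in either direction. ACSL4, named outside the rule, was at -0.22 without passing (limma adjusted p = 0.0776) and passed as lower in 3 of 17 alternatives. ACSBG1 and ACSL6, which couple fatty acids to coenzyme A, rose by 1.15 and 0.68 (limma adjusted p = 1.74e-06 and 5.48e-06). ACSL1, the main acyl-CoA synthetase of fat and liver, rose by 0.57 (limma adjusted p = 9.65e-06). CD36, the fatty acid transporter that fat cells and macrophages use together with FABP4, was at 4.96, 4.98 and 5.32 in SAHA, against 4.95, 4.83 and 4.50 in control (adjusted p = 0.0686), and was named outside the rule. It passed as higher without control replicate 1 and with the trend and robust variance model (adjusted p = 0.0404 and 0.0497).

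Of 13 lipid droplet and lipolysis genes 7 rose and 4 fell, with a median of 0.22. Over the alternatives 5 to 7 were called higher and 3 to 5 lower. Named after their values were seen, FITM1 lost its lower call in 6 of 16 alternatives. DGAT2 lost its higher call in 5 of 17 and CIDEB in 4 of 16. PNPLA2, the lipase that starts triglyceride breakdown, rose by 0.95 and FITM2, needed for droplet formation, by 0.97 (limma adjusted p = 1.16e-06 and 3.4e-06). DGAT1, a triglyceride synthase, rose by 0.44 (limma adjusted p = 3.54e-05). LIPE, the hormone-sensitive lipase that binds FABP4, was named outside the rule. It fell by 0.51, to 8.45, 8.32 and 8.31 in SAHA, against 8.87, 8.83 and 8.90 in control (limma adjusted p = 5.46e-05).

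Of 15 genes of fatty acid oxidation or known as PPAR targets 7 rose and 2 fell, with a median of 0.09. One of the higher genes was UCP2, named after its value was seen, at 0.13 (limma adjusted p = 0.0217). Its call ended in 6 of 17 alternatives, among them each fit that left out a SAHA array. ANGPTL4, a secreted lipase inhibitor induced by PPARs, rose by 1.26, to 11.17, 11.23 and 11.17 in SAHA, against 9.91, 10.06 and 9.83 in control (limma adjusted p = 8.47e-07). CPT2 of the carnitine shuttle rose by 0.58 and its relative CPT1C fell by 0.62 (limma adjusted p = 1.97e-05 and 2.09e-05).

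Among further carriers of small lipids, RBP7 and APOD were the clearest of those that rose. Of 4 other carriers of the same family 2 rose and none fell. RBP7, a retinol carrier, was at 6.45, 6.13 and 6.26 in SAHA, against 5.66, 5.90 and 5.80 in control (limma adjusted p = 0.00187). RBP5, another retinol carrier, had a change of 0.24 (limma adjusted p = 0.0239), a call that ended in 7 of the 16 alternatives that tested it, 4 of them by leaving out SAHA replicate 1 or 2 or control replicate 2 or 3 (adjusted p = 0.0658, 0.0827, 0.0653 and 0.051). RBP2, the intestinal retinol carrier, was at -0.14 without passing (adjusted p = 0.238).

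Of 12 lipocalins, secreted carriers with a related barrel, 3 rose and 1 fell, with a median of 0.03. APOD, a lipocalin that binds arachidonic acid, was at 7.99, 7.87 and 8.08 in SAHA, against 6.87, 6.91 and 6.66 in control (limma adjusted p = 4.77e-06). PTGDS, a prostaglandin synthase of this fold, rose by 0.23 (limma adjusted p = 0.0144) and ORM2 fell by 0.26 (adjusted p = 0.00208). RBP4, the retinol carrier of blood and named after its value was seen, passed narrowly at 0.21 (limma adjusted p = 0.0499), a call that ended in 11 of 16 alternatives, among them every array left out but control replicate 2. That of PTGDS ended in 3 of them, the further quantile normalization, the housekeeping centring and the ordinary unmoderated test (adjusted p = 0.0851, 0.123 and 0.0564).

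**Figure D4:**
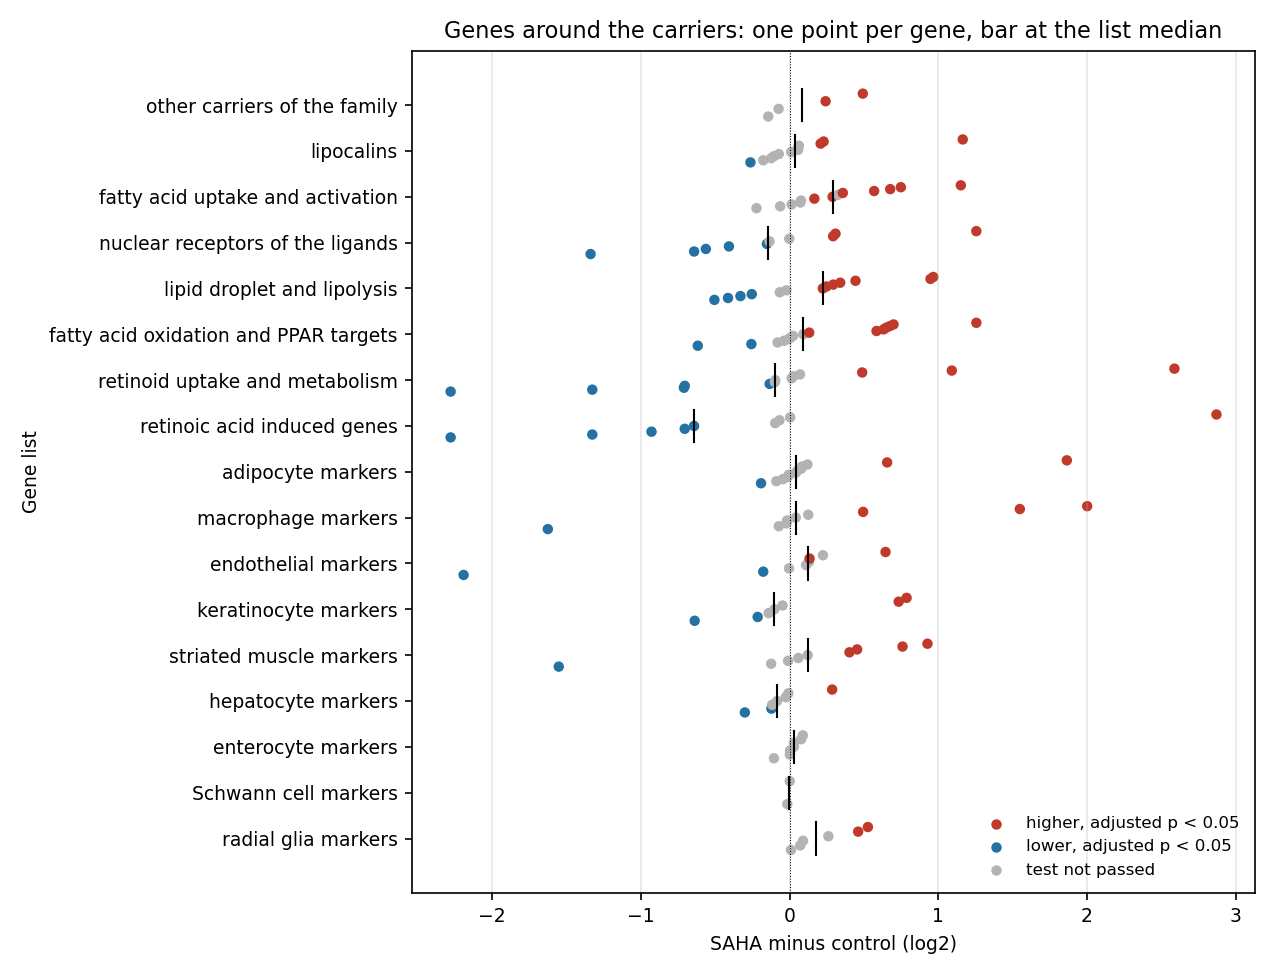
Change of each measured gene (SAHA minus control, log2, x axis) in the 8 lists around the carriers and the 9 marker lists (y axis), red for higher and blue for lower at an adjusted p under 0.05 and grey for the rest, with a bar at each list's median. The receptor and retinoid lists reach both sides, while most adipocyte markers lie near 0.

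Markers of the cell types that normally hold FABP4 were read beside it, where 60.0% of all genes were called. Of 12 adipocyte markers 2 rose, 1 fell and 9 did not pass, and those 9 changed by -0.09 to 0.12. LPL, the lipoprotein lipase, was at 8.01, 7.98 and 7.88 in SAHA, against 6.04, 6.20 and 6.04 in control (limma adjusted p = 9.87e-08). CFD, adipsin, rose by 0.66 (limma adjusted p = 2.92e-05) and AQP7, a glycerol channel, fell by 0.19 (adjusted p = 0.0145), a call that ended without SAHA replicate 1 (adjusted p = 0.0504). Lower adipocyte markers numbered 4 after a further quantile normalization, 4 with housekeeping centring and 2 without control replicate 3. The hormone gene ADIPOQ was at 5.84, 5.83 and 5.82 in SAHA, against 5.92, 5.67 and 5.78 in control, and the droplet coat gene PLIN1 changed by 0.05, neither passing. The summed signal of the adipocyte list on the linear scale ranged from 2130 to 2155 in SAHA and from 1800 to 1832 in control arrays. That difference came mainly from LPL and CFD, and the median change of the list was 0.05.

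Of 9 macrophage markers 3 rose, 1 fell and 5 did not pass. CD14 was at 10.92, 10.98 and 10.91 in SAHA, against 8.85, 8.99 and 8.98 in control (limma adjusted p = 4.05e-08), whereas CSF1R, the growth factor receptor of macrophages, fell by 1.63 (adjusted p = 1.97e-07). CD68 and MSR1 rose by 1.55 and 0.49 (limma adjusted p = 3.12e-06 and 0.000841). The summed signal was 3904 to 3980 in SAHA and 1639 to 1900 in control. Most of that sum came from CD14 and CD68, and the median change of the list was 0.04.

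Of 8 endothelial markers 2 rose and 2 fell. CDH5, VE-cadherin, fell by 2.19 (limma adjusted p = 1.1e-08), KDR, a VEGF receptor, rose by 0.64 (adjusted p = 6.02e-05), ERG was higher by 0.13 and TEK lower by 0.18. The calls of ERG and TEK each ended in 7 of the 15 alternatives that tested them. Without any 1 SAHA array neither passed, ERG also not without control replicate 2 and TEK not without control replicate 1 or 2. ERG also did not pass with housekeeping centring (adjusted p = 0.578), nor TEK with the ordinary unmoderated test (0.0938). The summed signal was 2013 to 2094 in SAHA and 7200 to 7463 in control. Most of that sum came from CDH5 alone, at 10.54 in SAHA and 12.73 in control, whereas the median change of the list was 0.12. No marker can be at 0 on this scale. All 6 arrays were of the A204 line, so the marker lists describe RNA of that line. A part of other cell types in the FABP4 result was not tested. AQP7, ADIPOQ, PLIN1, CD68, MSR1, ERG and TEK were named after their values were seen.

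Home tissues of the other carriers gave mixed counts too. Of 9 striated muscle markers, the tissue of FABP3, 4 rose and 1 fell, with MB, myoglobin, at -1.55 and DES, desmin, at 0.76 (limma adjusted p = 2.29e-07 and 2.38e-05). Of 7 keratinocyte markers, the tissue of FABP5, 2 rose and 2 fell, with KRT10 at 0.73 and DSG3 at 0.79 (limma adjusted p = 3.31e-06 and 7.11e-06). The 2 lower ones, named outside the rule, were KRT5 at -0.64 and KRT1 at -0.22 (limma adjusted p = 0.00122 and 0.00261). The median of this list was -0.10. Of 7 hepatocyte markers 1 rose and 2 fell, with AHSG at 0.29 and APOB at -0.30 (limma adjusted p = 0.00471 and 0.00107). The other lower one, APOA1, lost its call in 7 of 16 alternatives, among them centring on the median of all genes (adjusted p = 0.0528) and the fits without SAHA replicate 1 or 3 or control replicate 1 or 3, and housekeeping centring gave 4 lower. Of 6 radial glia markers 2 rose, SOX2 by 0.53 and NES by 0.46 (limma adjusted p = 0.0158 and 0.00377), and SOX2 did not pass the ordinary unmoderated test (adjusted p = 0.0959). Neither of 2 Schwann cell markers measured, MBP and SOX10, passed, and MBP passed as lower with housekeeping centring and a further quantile normalization (adjusted p = 0.0467 and 0.0286).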

How the data were processed

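The authors deposited RMA signal intensities per probe set, per the submitters' processing notes. RMA corrects background, makes the arrays' distributions alike and sums up probes. The sources used here do not give its software or version. The deposited values were linear, from 6.56 to 20338, with array medians of 142 to 149, so log2 was taken first. Of 33252 probe sets, 19460 named exactly 1 gene, 1754 several and 12038 none in GEO's platform annotation. Symbols were updated through Entrez identifiers in a RefSeq table of GRCh38.p14 (19429 matched, 31 kept the old symbol), which also gave gene order. For each gene the probe set of highest mean level (all 6 arrays) was kept, leaving 18417 genes, with no filter on dim genes.

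SAHA was compared with control by limma 3.58.1 in R 4.3.3 (lmFit and eBayes, no covariates, two-sided), with p-values adjusted by Benjamini-Hochberg over every gene tested and called under 0.05. It called 5735 genes higher (31.1%) and 5314 lower (28.9%). The fit was also run on simulated data with 200 changed genes and the same noise for every gene. These arrays differ from that in both respects, so that run does not bear on the calls reported here. The precision is limited by 3 arrays a group. No 2 arrays held the same values, and deviations of same-numbered arrays did not correlate above 0.1 (-0.03, -0.17 and -0.0042), so the numbers were not taken as pairs.

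Members and lists were chosen with earlier results of these data known, and support nothing by themselves. Beside the members, the text names the 3 genes of each pathway list and the 2 of each marker list with the smallest adjusted p, all other carriers, the 5 genes most like FABP4 and 3 measured neighbours on each side. Alternatives were other scalings, filters, probe set rules, variance models, the replicate block and each array left out.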

Additional observations from a re-analysis of the deposited data

How the results depend on the processing

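The change of FABP4 kept its direction in 17 alternatives and ran from 4.43 to 4.86, both ends from leaving out 1 control array, and that of FABP6 ran from 1.37 to 1.54. CRABP2 stayed lower, from -0.46 with housekeeping centring to -0.35, with -0.42 after a further quantile normalization and -0.40 after cyclic loess. Housekeeping centring followed the levels of TBP and SDHA, so calls that it alone made or ended depend on those genes. With housekeeping centring the median of all genes was -0.11 and 37.4% of calls were higher, against 51.9% without it in the reported setting. FABP2, FABP3, FABP7 and PMP2 were then at -0.11, -0.06, -0.07 and -0.06. With genes under the median left out, 3660 genes were called higher and 3993 lower among fewer genes tested, with 3 higher and 1 lower for fatty acid uptake, 3 lower for retinoic acid induced genes, and 1 higher and 2 lower for retinoid metabolism. Housekeeping centring gave 4 lower oxidation genes, 2 lower uptake genes, 1 higher and 3 lower lipocalins, and 1 higher and 2 lower other carriers. A further quantile normalization gave 1 lower uptake gene, 1 higher and 3 lower lipocalins, and 1 higher and 1 lower other carrier. The ordinary unmoderated test left 1 lipocalin and 1 other carrier higher. Lower lipocalins numbered 2 after cyclic loess. Keratinocyte markers were 4 lower with housekeeping centring, cyclic loess or a further quantile normalization, and striated muscle markers then 2 lower with the first and 3 with the last. Lower macrophage markers numbered 3 with housekeeping centring. The causes were not tested.

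With each array left out in turn, genes called higher numbered 5267 to 5678 and genes called lower 4875 to 5250. Lower uptake genes then numbered 0 to 1, lower lipocalins 1 to 2 and higher other carriers 1 to 2. With the replicate block 5520 genes were called higher and 5081 lower, and 2 lipocalins were lower. RXRB, ERG and APOA1 then did not pass (limma adjusted p = 0.0603, 0.065 and 0.0962). Nor did UCP2, TTR and FITM1 (limma adjusted p = 0.0673, 0.0708 and 0.0538). Same-numbered arrays did not correlate best with each other. Without scanner files, signal over background is unknown, so differences of dim genes such as FABP2 may be compressed.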
